A study of Mus musculus with 14 samples.

Results

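Genes for ionotropic and metabotropic glutamate receptors, with the auxiliary and scaffold proteins that hold AMPA and NMDA receptors at synapses, were followed through the cell types of the mouse retina and of brain vascular preparations. The members were a given list of 31 genes, kept whole: 4 AMPA receptor subunits, 5 kainate receptor subunits, 6 NMDA receptor subunits, 1 delta receptor, 6 metabotropic receptors, 6 transmembrane AMPA receptor regulatory proteins (TARPs) and 3 scaffolds. All 31 were found among the 28316 gene symbols of the retina and the 26528 of the brain. The study asked what follows from the loss of TGF-beta signaling in endothelial cells (ECs), and profiled single nuclei with PIPseq from whole retinas and from brain vascular fragments. CKO mice carried Cdh5CreER (VEcadCreER in the sample labels), which drives recombination in ECs, over 1 conditional and 1 null allele of Tgfbr1, and received 4-hydroxytamoxifen between postnatal days 3 and 5. Control mice were phenotypically wild type, and whether they received 4-hydroxytamoxifen was not stated. The retina was represented by 1 control and 11 CKO libraries and the brain by 1 library of each genotype. Each brain library came from 2 brains, and how many mice went into a retina library is not known. The series labels call the mice young adults, while the paper gives an earlier age.

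Glutamate is the main excitatory transmitter of the retina, released by photoreceptors, bipolar cells and ganglion cells. AMPA and kainate receptors are fast cation channels built as tetramers, NMDA receptors need the subunit encoded by Grin1 together with Grin2 or Grin3 subunits, and metabotropic receptors act through G proteins. TARPs (the Cacng genes listed here) control the surface number and gating of AMPA receptors, and Dlg and Shank proteins organize the postsynaptic density.

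Depth per retina library ran from 90449 UMIs (104 nuclei, CKO 4) to 55803724 UMIs (18862 nuclei, CKO 5), with 30989702 UMIs in 11513 nuclei of the control. The brain libraries held 49798325 UMIs (control) and 31033373 UMIs (CKO). Of 77666 distinct retinal barcodes, 10 occurred in more than 1 library, and 2 of 31322 did so in the brain. Levels are given as CPM, the UMIs of a gene per 1000000 UMIs of a cell type in a library, as mean ± SD over libraries with at least 20 nuclei and 20000 UMIs of that type. For 9 of the 11 retinal labels 11 libraries passed, for retinal ganglion cells (RGC) 12 and for astrocytes 4, of which none was the control. Since labels were built from the same genes, differences between cell types are descriptions with no test.

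The library CKO 4 stood apart. It had enough nuclei only in RGC (25) and immune cells (65). In its RGC nuclei Gria1 was at 1162 CPM, against 242 to 344 in the other 11 libraries, and Gria2 at 1771 CPM against 694 to 985. Mean CPM in RGC is therefore also given without it. Leaving it out changed the highest retinal type of 3 members, Grin2a, Grm4 and Cacng8.

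Most retinal labels carried their own markers, given as CPM of the UMIs pooled over all libraries of a label. The summed CPM of 7 rod markers was 16287 in rods, that of 7 cone markers 8205 in cones, and that of 5 rod bipolar markers 24449.6 in rod bipolar cells (RBC). Cone bipolar markers summed to 4346 in cone bipolar cells (CBC), of which Grik1, itself a member, gave 3241, so that list is not independent of the levels below. The next were horizontal cell markers at 2275 in horizontal cells (HC), and Müller glia markers at 3092 in Müller glia (MG), where astrocytes held more (3663). Markers of glycinergic amacrine cells, which share Pax6 and Tfap2b with other types, summed to 1043 in that label and to 1203 in GABAergic amacrine cells, so they did not set the 2 amacrine labels apart. Nuclei labelled immune cells held 1128 CPM of immune markers and also 5634 CPM of rod markers, more than any other label except rods and cones, so receptor levels under that label were not read as those of immune cells. In the brain, label and markers parted in some clusters. Glut_14 held 435 CPM of Gad2 and 199 of Gad1 with 10.4 of Slc17a7 and 6.84 of Slc17a6, so its markers were those of inhibitory neurons, against its name. Glut_21 held 14245 summed CPM of Purkinje cell markers, of which Itpr1 gave 10339 and Pcp2 285, and Glut_5 held 1293 CPM of Gabra6, a marker of cerebellar granule cells. GABA_9 held 8263 summed CPM of markers of striatal projection neurons. Brain clusters are named below by their labels.

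Tgfbr1 was at 69.1 CPM in ECs of the control brain and at 62.9 in CKO, with overlapping 95% Poisson intervals. Counts over the whole gene do not isolate the deleted part, and so they do not check the genotype labels.

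Of the retinal cell types, photoreceptors held the least of these genes apart from scaffolds and 2 metabotropic receptors. Leaving out the 3 scaffolds, the summed level of the members was 12375 ± 969 CPM in GABAergic amacrine cells (GABA_AC) and 12206 ± 815 in glycinergic amacrine cells (Gly_AC), 11 libraries each. It was 1487 ± 151 in rods and 953 ± 192 in cones. By mean CPM, 10 members were highest in GABA_AC, 6 in RGC, 5 in Gly_AC, 5 in RBC, 2 in CBC, 2 in MG and 1 in rods. For 6 of the 31 the range over libraries of the highest type did not overlap that of the next, and for 25 it did. For Grm2 and Grm3 the overlap of GABA_AC with RGC rests on CKO 4. Without it RGC ran from 0 to 3.71 CPM of Grm2 and from 10.9 to 51.4 of Grm3, against 8.83 to 26.9 and 168 to 333 in GABA_AC.

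**Figure D1:**
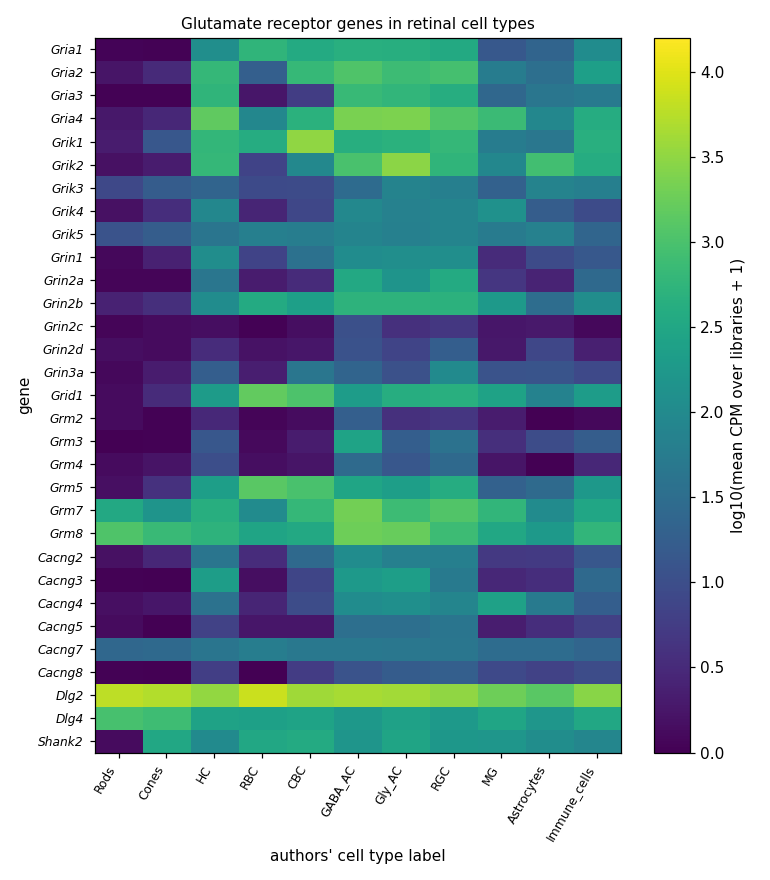
Mean CPM of the 31 members (vertical axis) in the 11 authors' retinal cell type labels (horizontal axis), colored by log10(mean CPM + 1) over the libraries that passed. Rods and cones are dark for AMPA, kainate and NMDA subunits, and bright for Dlg2, Dlg4 and Grm8.

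AMPA receptor subunits differed in level between retinal types, though for each subunit the range of the highest type overlapped that of the next. Gria4 was highest in Gly_AC at 2387 ± 297 CPM, overlapping GABA_AC at 2246 ± 258. Gria2, whose edited protein makes AMPA channels nearly impermeable to calcium, was highest in GABA_AC at 1110.4 ± 139 CPM, and its range overlapped that of RGC at 928 ± 279 (851 ± 90.8 without CKO 4). Both amacrine classes also led in Gria3, with 672 ± 82.5 CPM in GABA_AC and 590.3 ± 60.7 in Gly_AC.

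RBC differed from the other bipolar cells. Gria1 reached its highest mean there, 559 ± 70.7 CPM, with a range (461 to 691) that overlapped GABA_AC. Gria2 in RBC was 18 ± 10.5 CPM and Gria3 0.789 ± 1.08 CPM. As a share of the UMIs of Gria1 to Gria4, Gria1 made up 84.2% ± 7.08 in RBC (SD, n = 11), from 74.1% to 95.3%, against 24.5% ± 1.8 in CBC and 9.9% ± 0.702 in GABA_AC. The share of Gria2 was 2.66% ± 1.47 in RBC and 43.3% ± 2.02 in CBC, and no library of one type reached the range of the other. Corrected for gene length, Gria1 still made up 82.4% of the family in RBC, and in CBC Gria2 led with 68.7%.

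MG held Gria4 at 724 ± 104 CPM, 88.9% ± 3.55 of AMPA subunit UMIs (n = 11), with Gria2 at 56.6 ± 35.8 CPM. In HC the share of Gria4 was 53.3% ± 2.68 and that of Gria3 19.8% ± 2.96. Corrected for gene length, Gria2 led in HC with 44.9%, ahead of Gria4 at 34.3%, and Gria4 still led in MG with 77.7%. Gria3 was near 0 in CBC, at 4.69 ± 4.07 CPM. Fewer than 3 libraries of rods or of cones reached 100 UMIs of the family, and Gria2 was at 0.719 ± 0.717 CPM in rods and 2.2 ± 3.21 in cones.

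**Figure D2:**
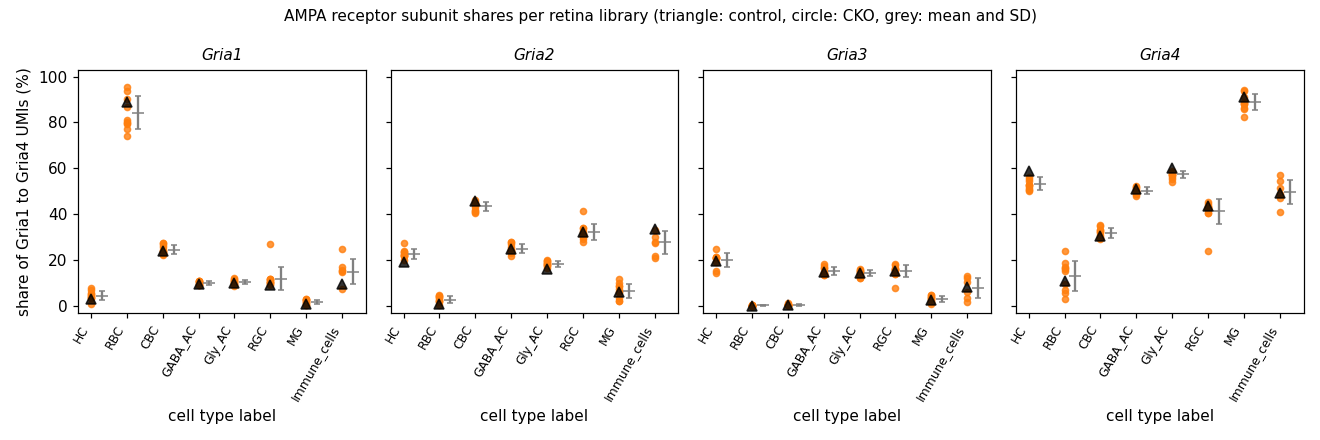
Share of each AMPA receptor subunit among Gria1 to Gria4 UMIs (vertical axis, percent) per retina library and cell type label (horizontal axis), with the control as a triangle, CKO libraries as circles and mean and SD in grey. Gria1 leads in RBC and Gria4 in MG in the control and in the 10 CKO libraries with enough nuclei, and the RGC circle that lies apart is CKO 4.

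In the brain the order was again set by cell type, and both libraries gave it side by side with no replicate. Of 21 labels, 19 had at least 20 nuclei and 20000 UMIs in both libraries. Gria1 was highest in Glut_17, at 4191 CPM (95% interval 4075 to 4309.8) in control and 4413 (4281 to 4548) in CKO, and Gria2 was highest there too, at 2453 CPM in control and 2400.0 in CKO, above GABA_22 in control and not in CKO. Intervals are exact and cover counting error only. GABA_22 had 53 nuclei and 44688 UMIs in CKO, so its CKO values here and below rest on few UMIs. Gria3 and Gria4 were highest in GABA_22, Gria4 at 7935 CPM (95% interval 7609 to 8271) in control and 6109 (5406 to 6878) in CKO and Gria3 at 3129.9 CPM in control and 2976 in CKO, with Gria1 at 39 CPM in control and 201 in CKO. In Glut_5, with markers of granule cells, Gria4 made up 73.9% (72.9% to 74.8%) in control and 72.4% (69.5% to 75.2%) in CKO of AMPA subunit UMIs, but per kb of gene Gria2 led with 52.1% and 51.9%. There Gria1 and Gria3 were at 8.15 and 2.51 CPM in control. Gria3 was low in brain astrocytes, at 19.8 CPM in control and 9.89 in CKO. Oligodendrocytes held Gria2 as 66.8% (64.6% to 69%) in control and 70.3% (66.5% to 73.9%) in CKO of the family.

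Kainate receptor subunits differed between bipolar and amacrine classes. Grik1, which encodes a pore-forming subunit of the receptors that carry photoreceptor signals to OFF cone bipolar cells, was highest in CBC at 3213 ± 750.4 CPM, with every CBC library (2002 to 4251) above every RGC library (337 to 1743, CKO 4 the highest), the next type. It was 4049 CPM in the control, and in CKO 2002 to 4251 (median 3166, n = 10). The 4 libraries made with kit v5.0, CKO 8 to CKO 11, were the lowest, at 2002, 2334, 2689 and 2628 CPM, and the part of the kit was not tested. Grik1 made up 94.9% ± 1.45 of kainate subunit UMIs in CBC.

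Grik2 took its place in both amacrine labels, with the higher level in Gly_AC. It was 2896 ± 244 CPM in Gly_AC and 1003 ± 109 in GABA_AC, and the ranges (2549 to 3298 and 778 to 1172) did not overlap. Its share of the family was 80.5% ± 3.75 in Gly_AC, 61.2% ± 3.81 in GABA_AC, 46.1% ± 9.03 in HC and 2.82% ± 1.05 in CBC. Retinal astrocytes were at 76.1% ± 13.9 (n = 3, CKO only). Corrected for gene length, Grik2 kept the lead in Gly_AC with 60.1%, in GABA_AC with 35% and in astrocytes with 43%. In HC Grik1 led with 44%, ahead of Grik2 at 27.4%. Retinal astrocytes held 839 ± 309 CPM of Grik2 (n = 4, CKO only), below GABA_AC by mean with ranges that overlapped. Grik4, a subunit that needs Grik1 to Grik3 partners to form a channel, was highest in MG at 132 ± 17.9 CPM, where it was 38.7% ± 6.09 of the family. Corrected for gene length its share in MG was 20.8%, and Grik5 led with 55.8%. Grik3 was highest in Gly_AC at 73.8 ± 17.6 CPM, level with astrocytes at 73.2 ± 33.2, and Grik5 in GABA_AC at 78.7 ± 17.1 CPM, overlapping RGC at 78.5 ± 21.9 (73.1 ± 11.7 without CKO 4).

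Of the brain clusters, Glut_5 held the most Grik2, at 8708 CPM (95% interval 8564 to 8854) in control and 8317 (7895 to 8755) in CKO. By the mean of the 2 libraries the next label was oligodendrocyte precursors (OPCs), at 2164 CPM in control and 3122 in CKO. GABA_9, at 2574 CPM, and oligodendrocytes stood above OPCs in control, and GABA_9 was below them in CKO at 2652. Grik1 was highest in Glut_14 at 1976 CPM in control and 2266 in CKO and next in Glut_21 at 1569 CPM in control and 1756 in CKO. GABA_22 led in Grik3 at 869 CPM in control and 1164 in CKO, Glut_17 in Grik4 at 611 CPM in control and 708 in CKO, where OPCs stood above it in control, and GABA_9 in Grik5 at 209 CPM in control and 242 in CKO.

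NMDA receptor subunits were spread over inner retinal neurons. Grin1, the subunit no NMDA receptor can do without, was 119 ± 20.1 CPM in RGC (118 ± 20.1 without CKO 4), 117 ± 22.1 in Gly_AC and 112 ± 31.7 in HC, with overlapping ranges. Grin2a was 366 ± 86.8 CPM in RGC (346 ± 56.9 without CKO 4) and 347 ± 51.1 in GABA_AC, so that the order of the 2 types rests on CKO 4, and Grin2b was highest in Gly_AC at 525 ± 61.8, overlapping GABA_AC at 517 ± 45.7. In CBC the GluN2 share of Grin2b was 98.4% ± 0.897, in RGC 55.9% ± 3.93, where Grin2a took 42% ± 3.91.

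Grin1 was low in RBC, where Grin2b was not. Grin2b was 370.4 ± 149 CPM there and Grin1 5.88 ± 4.69 CPM, while in CBC the values were 235 ± 49.7 and 35.6 ± 8.64. Per kb of gene, which sets aside that Grin1 is the much shorter gene, mean Grin1 in RBC was 0.21 CPM per kb and Grin2b 0.805, against 1.27 and 0.511 in CBC. Libraries of RBC fell into 2 bands of Grin2b. The control (550.0 CPM), CKO 5 (614), CKO 6 (523) and CKO 10 (534) were high, and the other 7 lay between 237 and 307 CPM. High libraries occurred in all 3 batches and with both kits, but within the control's batch the control was the only one, and with that batch alone edgeR called Grin2b lower in CKO. It did so too with no filter on low counts.

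Grin3a, whose subunit lowers calcium entry through NMDA receptors, was highest in RGC at 101 ± 33.8 CPM (98.1 ± 33.3 without CKO 4), and its range (48.4 to 159) overlapped CBC (31.9 to 53.4). Grin2d was highest in RGC at 17.1 ± 12.3 CPM (13.6 ± 2.68 without CKO 4), and Grin2c in GABA_AC at 9.49 ± 2.96. In the brain Grin2c was highest in Glut_5, at 366 CPM (95% interval 337 to 397) in control and 389 (302 to 493) in CKO. Astrocytes came next, at 334 CPM in control and 338 in CKO. Its share of GluN2 UMIs in astrocytes was 46.7% (43.5% to 49.9%) in control and 62.6% (56.6% to 68.4%) in CKO. Grin2a (3086 CPM in control and 3336 in CKO) and Grin2b (2846 CPM in control and 3041 in CKO) were highest in Glut_17, Grin1 in GABA_22 (390.4 CPM in control and 649 in CKO, below Glut_5 in control), Grin2d in Glut_19 (50.3 CPM in control and 64.8 in CKO) and Grin3a in OPCs (895 CPM in control and 689.5 in CKO).

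Grid1, a delta receptor that binds cerebellins and organizes synapses rather than passing glutamate-gated current, was highest in bipolar cells of the retina. RBC held 1541 ± 129 CPM and CBC 1052 ± 94.8, and all RBC libraries (1375 to 1707) lay above all CBC libraries (931 to 1205). The control RBC value was 1462 CPM and CKO ran from 1375 to 1707 (median 1578, n = 10). Rods held 0.333 ± 0.619 CPM. In the brain Grid1 was highest in GABA_22 at 2356 CPM (95% interval 2180.5 to 2543) in control and 3894 (3337 to 4517) in CKO, followed by OPCs at 1882 CPM in control and 1595 in CKO.

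Metabotropic receptors included the members that photoreceptors did hold. Grm8, a group III receptor that acts as a presynaptic brake on release, was 1094 ± 123 CPM in rods and 712 ± 137 in cones, and 76.2% ± 5.19 of the 6 receptors' UMIs in rods. Its highest mean was in GABA_AC at 1901 ± 157 CPM, overlapping Gly_AC at 1692 ± 144. Grm7, of the same group, was 2042 ± 261 CPM in GABA_AC, and each library there (1769 to 2565) exceeded each RGC library (922 to 1715, CKO 4 the highest). In rods it was 341 ± 73.3 CPM.

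Grm5, a group I receptor coupled to Gq, followed Grid1. It was 1359 ± 133 CPM in RBC and 1003 ± 67.1 in CBC, with ranges (1187 to 1568 and 883 to 1118) that did not overlap, and 77.7% ± 6.33 of the receptors' UMIs in RBC. Grm6, the receptor of ON bipolar cells, which is a pathway gene outside the member list, was 845 ± 120.1 CPM in RBC and 287 ± 47.4 in CBC. Grm3 was 272 ± 51.7 CPM in GABA_AC and 38 ± 50 in RGC (23.8 ± 10 without CKO 4). Grm2 was also highest in GABA_AC, at 17.7 ± 5.63 CPM. Grm4 was 27 ± 5.72 CPM in GABA_AC and 25.9 ± 11.1 in RGC, or 28.3 ± 7.84 without CKO 4, which puts RGC first.

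Brain clusters divided these receptors further. Grm3 in astrocytes was 1999 CPM (95% interval 1925 to 2076) in control and 3464 (3303 to 3630.0) in CKO. Nuclei labelled pericytes, which had too few UMIs in CKO to be ordered, held Grm3 at 5376 CPM (95% interval 4972 to 5804) in control and 2171 (1326 to 3353) in CKO, and Grm7 at 3406 CPM in control. For 0 UMIs of Grm7 in 9213 UMIs of CKO pericytes, the upper limit of the interval was 400.4 CPM. Grm4 was 927 CPM in control and 897 in CKO in Glut_5 and 163 CPM in control and 163 in CKO in Glut_19, the next label. Grm5 was highest in GABA_9, with striatal markers, at 4172 CPM in control and 4169 in CKO, Grm7 in Glut_0 at 3552 CPM in control and 3811 in CKO, Grm8 in GABA_22 at 1473 CPM in control and 2484 in CKO and Grm2 in Glut_20 at 32.3 CPM in control and 39.3 in CKO.

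**Figure D3:**
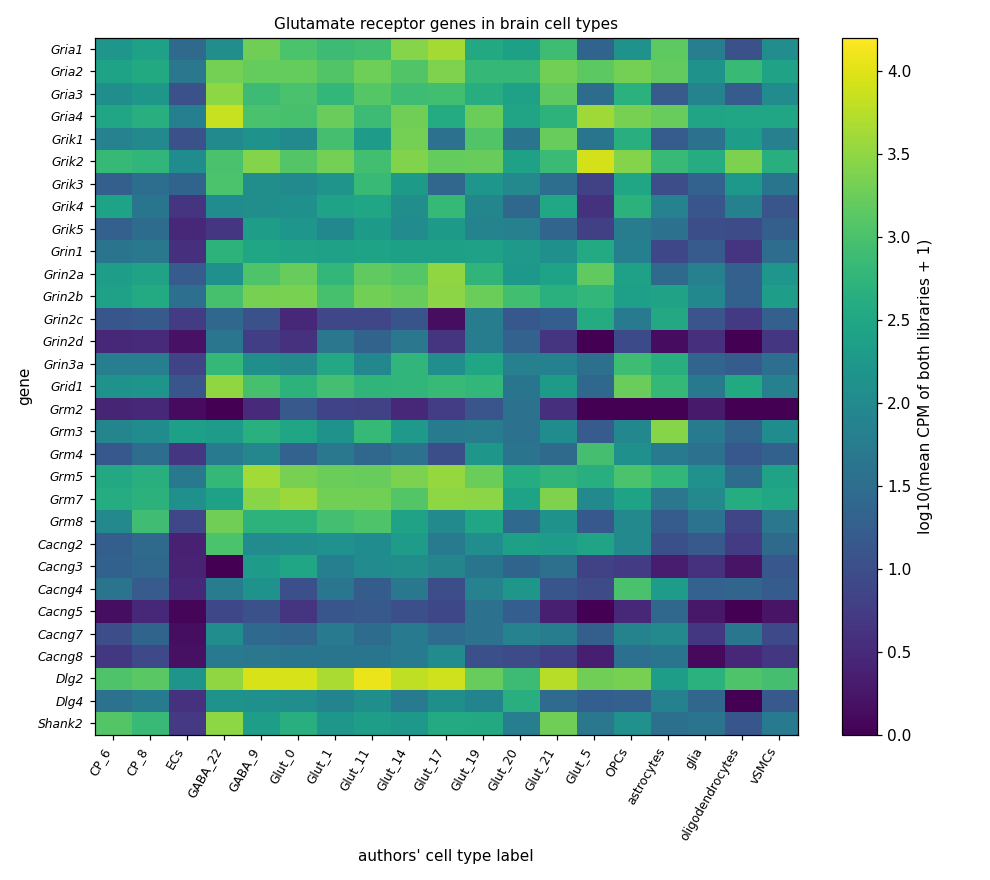
Mean CPM of the control and CKO libraries for the 31 members (vertical axis) in the 19 brain labels with enough nuclei in both (horizontal axis), colored by log10(mean CPM + 1). ECs are the darkest column, Glut_5 is brightest for Grik2, and GABA_22 for Gria4.

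TARP genes differed by cell type. Cacng4 was highest in MG at 252 ± 41.1 CPM, and each MG library (192 to 326) exceeded each Gly_AC library (106 to 174), the next type. It made up 84.9% ± 2.83 of TARP UMIs in MG. Cacng3 was 225 ± 22.6 CPM in Gly_AC and 218 ± 73.9 in HC, where it was 60.9% ± 10.1 of the family. Cacng2, the TARP named stargazin, was highest in GABA_AC at 110.2 ± 18.7 CPM, Cacng5 in RGC at 42.6 ± 15.8 (46.5 ± 8.83 without CKO 4), and Cacng8 in RGC at 17.5 ± 29.5. Without CKO 4, Cacng8 in RGC was 9.04 ± 3.63 CPM, below Gly_AC at 15.8 ± 5.08. Cacng7 was highest in RBC at 59.8 ± 15.7 CPM, overlapping GABA_AC at 47.5 ± 8.23.

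OPCs were the brain counterpart for Cacng4, at 1068 CPM (95% interval 981 to 1160.4) in control and 905 (781 to 1044) in CKO, followed by astrocytes at 224 CPM in control and 199.8 in CKO. Cacng2 was highest in GABA_22 (983 CPM in control and 1096 in CKO), Cacng3 in Glut_0 (275 CPM in control and 308 in CKO), Cacng5 in Glut_19 (37.4 CPM in control and 37.9 in CKO), Cacng7 in GABA_22 (114 CPM in control and 112 in CKO) and Cacng8 in Glut_17 (105 CPM in control and 108 in CKO). For Cacng7 the next label, astrocytes, was at 80.7 CPM in control and 105 in CKO. GABA_22 held only 44688 UMIs in CKO, so that order rests on few UMIs.

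Scaffold genes stood high in photoreceptors, where per kb of gene they were the first 2 members. Dlg4, which encodes PSD-95, was highest in rods at 941 ± 132 CPM, overlapping cones at 795 ± 91.8. Dlg2, which encodes PSD-93, was 7176 ± 1759.7 CPM in RBC and 6105 ± 406 in rods, with overlapping ranges. In RBC the 4 libraries of kit v5.0 lay between 4841 and 6413 CPM and all others between 6714 and 10156, the control highest. Shank2 parted the photoreceptors, at 0.311 ± 0.531 CPM in rods and 326 ± 65.5 in cones, and was highest in CBC at 364 ± 44.8. In the brain Dlg2 was highest in Glut_11 (11058 CPM in control and 12590.5 in CKO), Dlg4 in Glut_20 (383 CPM in control and 500.1 in CKO) and Shank2 in GABA_22 (3197 CPM in control and 3043 in CKO), and CP_6 held 1077 CPM in control and 1259.9 in CKO of Shank2.

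Levels of different genes were set against each other per kb of gene length. Dlg4 led the members in rods (30.8 ± 4.31 CPM per kb), cones (26 ± 3), HC (8.59 ± 2.18), RBC (7.87 ± 1.47), CBC (8.8 ± 1.17), Gly_AC (8.22 ± 1.19) and MG (9.49 ± 1.42), and also in astrocytes. Its range in CBC (7.14 to 10.6) overlapped that of Grik1 (8.15 ± 1.9, 5.08 to 10.8), which was lowest with kit v5.0. Under the immune label, which held rod markers, Dlg4 was at 324 CPM. The other non-photoreceptor labels it led held from 160 CPM (astrocytes) to 290 (MG). What part of the Dlg4 in these labels was rod RNA was not tested. Gria2 led in GABA_AC (9.12 ± 1.14 CPM per kb) and RGC (7.62 ± 2.29). The RGC value includes CKO 4, the highest library at 14.5 CPM per kb, without which Gria2 was at 851 ± 90.8 CPM. The next places went to Dlg2 and Grm8 in rods and cones, to Gria2 and Grin1 in HC, to Dlg2 and Grm5 in RBC, to Grik1 and Gria2 in CBC, to Gria4 and Dlg4 in GABA_AC, to Gria4 and Gria2 in Gly_AC, to Dlg4 and Grin1 in RGC, to Cacng4 and Gria4 in MG, and to Grik2 and Grik5 in astrocytes. Nuclei under the immune label, with their rod markers, gave Dlg4, Gria2 and Dlg2. By the mean of the 2 brain libraries, Gria2 led per kb in 12 of the 19 labels, though Grin1 stood above it in CKO in Glut_1 and Glut_14, and was among the top 3 in all but Glut_5, which was led by Grin2c (20.4 CPM per kb), Grin1 and Grik2. In GABA_22 Gria4 led in control (21 CPM per kb) and, on few UMIs, Grin1 in CKO (23.1, Gria4 16.1). In CP_6 Gria2 led in control (2.45, Shank2 2.41) and Shank2 in CKO (2.82). In both libraries astrocytes were led by Grin2c (mean 18.1) and ECs by Grm3 (0.956), and Cacng4 was second in OPCs (15.8 CPM per kb).

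Whether loss of Tgfbr1 in ECs moved these genes in other retinal cells was asked in 10 cell types with edgeR's quasi-likelihood test on UMIs summed per library, with batch as a term. After filtering of low counts, from 10 members (cones) to 31 (GABA_AC, Gly_AC and RGC) could be tested, 230 tests in all. None of the 230 reached an adjusted p under 0.05, where 7 of 121773 tests over all genes did, 0.00575%. At an unadjusted p under 0.05 there were 24 of the 230 (10.4%), against 3595 (2.95%) of all tests. DESeq2 called 0 of 230 members, with 22 at an unadjusted p under 0.05. Over all genes it called 65 of the 113368 with an adjusted p, of which 2262 (2.00%) were at an unadjusted p under 0.05. DESeq2 gave no adjusted p to some genes (in rods 10572 of 14146 were left). The 230 was not reduced for this, so the 2 shares have unlike bases. The edgeR share of members at an unadjusted p under 0.05 moved with the setting, from 13 of 230 (5.65%, all genes 2.48%) with no covariate to 38 of 209 (18.2%, all genes 4.43%) with only the control's batch. The median log2 change of the tested members ran from -0.21 in HC to 0.23 in RBC, and that of all genes from 0.00 to 0.04. Of the other 36 pathway genes, 0 of 289 tests were called by edgeR and 0 of 289 by DESeq2, a count not reduced for missing adjusted p-values either. With 1 control library, its spread was assumed to equal that of the CKO libraries. The p-values set the genotype difference against that spread between libraries, and whether it covers the spread between mice is not known.

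The members with the lowest p-values are named here after they were seen. Since they were picked for this difference, a control outside the CKO range is no further support. How often that occurs over all genes was not counted. Among the members picked, edgeR called Gria2 in RBC and Grm7 in MG with no filter on low counts. Cacng3 in CBC was 0.567 CPM in the control and 5.28, 10.5 and 7.2 in the CKO libraries of the control's batch, a log2 difference of 3.62 (SE 0.66) with an edgeR adjusted p of 0.741. The control value is a low count, since its CBC nuclei held 5292168 UMIs in all, and the difference rests on it. All CKO libraries, 4.97 to 10.5 (median 6.85, n = 10), lay above the control. Grik4 in Gly_AC was 25.4 CPM in the control and 52.3 to 97.2 (median 74.4, n = 10) in CKO, again without overlap (edgeR adjusted p 0.806). Gria2 in RBC was 2.87 CPM in the control and 3.48 to 31.4 (median 18.7, n = 10) in CKO (edgeR adjusted p 0.699), and its lowest CKO library was near the control. Grm7 in MG was 807 CPM in the control, above all of CKO at 409.8 to 746 (median 552, n = 10), with an edgeR adjusted p of 0.499.

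The brain comparison rests on 1 library per genotype and has no test. Among the 8 labels with at least 1000000 UMIs in both libraries, 217 ratios of members with at least 50 UMIs were formed, and 8 passed a fold of 2, 2 higher and 6 lower in CKO (3.69%). Over all genes 4686 of 63539 ratios did so, 7.37%. Of the pathway genes, 7 of 211 ratios did.

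Members below the fold lay in ECs and in 3 neuronal labels, where many other genes passed it too. Of all genes, 13.4% passed in ECs, where 3 of 18 members did, with 443 of 1516 lower. In Glut_0, Glut_1 and Glut_11 8.47%, 8.44% and 9.38% passed, and most of those genes were lower in CKO (668 of 820, 717 of 807 and 468 of 543). Their CKO nuclei were shallower, with median UMIs of 2314, 1653 and 1804 against 5004, 3603 and 4669 in control. So were those of GABA_9 (1408 against 3495), where 4.09% passed. Glut_5 had 1858 nuclei in control and 251 in CKO. The part of depth and of nuclei numbers in the ratios was not tested. In ECs, Grm7 was at a CKO over control ratio of 0.495 (interval 0.446 to 0.549; 977 UMIs in control and 571 in CKO), Grin3a at 0.308 (interval 0.175 to 0.522; 55 UMIs in control and 20 in CKO) and Grin2c at 0.423 (interval 0.226 to 0.765; 36 UMIs in control and 18 in CKO). Pericyte markers, which nuclei labelled ECs also held, summed there to 6971 CPM in control and 6029.8 in CKO, and their part was not tested. Grm4 was lower in Glut_0, at 0.451 (interval 0.357 to 0.566; 314 UMIs in control and 101 in CKO), and in Glut_11, at 0.441 (interval 0.252 to 0.735; 79 UMIs in control and 19 in CKO), and Grin2c in Glut_1, at 0.451 (interval 0.256 to 0.761; 66 UMIs in control and 19 in CKO). Grm4 and Grin2c are among the 3 members at their highest in Glut_5, with Grik2, whose ratios were 0.991 in Glut_0, 0.985 in Glut_1 and 0.809 in Glut_11. The summed granule cell markers were 185 CPM in control and 102 in CKO in Glut_0, 272 CPM in control and 82.7 in CKO in Glut_11 and 113 CPM in control and 25.3 in CKO in Glut_1, where Grm4 was at a ratio of 1.09. They were also lower in Glut_19, at 224 CPM in control and 61.8 in CKO, where Grm4 was at 1, and their part in the ratios was not tested. Grm2 was higher in Glut_1, at 2.85 (interval 1.65 to 5.03; 22 UMIs in control and 40 in CKO), and Grm4 in CP_6, at 2.72 (interval 1.51 to 4.92; 24 UMIs in control and 27 in CKO).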

How the data were processed

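Single-nucleus UMI counts came from 12 retina and 2 brain libraries, and the authors deposited them after PIPseeker, background removal with CellBender, doublet removal with SOLO and manual curation, with cell type labels made in Seurat. The sample labels name the build mm10, while the study's methods name a GRCm39 index. UMIs were summed per authors' label and library (Python 3.11.15, pandas 2.3.3) and divided by the total of that label and library for CPM. Gene spans of GENCODE M39 gave lengths, since nuclear RNA includes introns. Subunit shares needed at least 100 UMIs of the family per library. Retinal genotype tests used edgeR 4.0.16 (TMM, filterByExpr, batch as a term, Benjamini-Hochberg adjustment over all genes of a cell type), where the control and at least 2 CKO libraries of its batch passed, which left out astrocytes. The edgeR step was tested on simulated data with known changes. Alternatives were a kit term, no covariate, the control's batch alone, DESeq2 1.42.0, its size factors, no filter, nuclei with at least 1000 UMIs, and omitted libraries. Brain ratios have exact conditional binomial intervals. Named genes were all members, those called, the 3 highest per kb of each type, and those past the fold. The members and lists were chosen with earlier results of these data known.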

Additional observations from a re-analysis of the deposited data

Results flagged for a closer look

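Each member's CPM over the CKO libraries of its highest retinal cell type was examined for a library far from the others, in the 25 members for which 10 CKO libraries passed, and 0 had one by Dixon's gap ratio at the 95% level. The 6 members highest in RGC, with 11 CKO libraries, were not examined this way.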

How the results depend on the processing

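The count of members called in the retina was 0 under 6 alternatives, 1 of 209 with only the control's batch (71 of 109926 over all genes) and 4 of 306 with no filter on low counts (244 of 246134). The 1 was Grin2b in RBC, and the 4 were Grin2b and Gria2 in RBC, Grik3 in cones and Grm7 in MG, named after their values were seen; the cause was not tested. No leave-one-out fit of the retinal test was run, since no cell type had a member called. The highest retinal type was the same for 26 to 28 of 31 members under the other settings, and for 28 without CKO replicate 4, chosen after seeing the data. The leading subunit was the same in 36 (per kb) and 42 (nuclei with at least 1000 UMIs) of 44 family and cell type pairs, in all 44 with only the control's batch, and in 33 of the 34 pairs left with at least 500 family UMIs. In the brain, 8 member ratios were past the fold, and 2 with at least 200 UMIs per gene, since fewer genes were compared. TMM factors gave 9. No paired analysis was possible, with 1 control library per tissue and no label that pairs mice. In the retina, batch was a term instead. One control library, 104 nuclei in CKO 4 and 1 brain library per genotype limit the genotype comparisons. Low counts limit Grm2, Grin2c, Grin2d, the control value of Cacng3 in CBC, and the members in GABA_22 of CKO.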
